A study of Mus musculus with 6 samples.

Results

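The 9 genes described here encode proteins of the myelin sheath or the enzymes that build it, and they were read in polysomal mRNAs that TRAP recovered from hippocampal astrocytes. They are Mbp, Mog, Mag, Mobp, Cnp, Mal, Ermn, Opalin and Ugt8a, chosen by name as genes typical of oligodendrocytes, not by their level in these libraries. Earlier results of these data were, however, known when they were chosen. Among 22075 genes matched to the count files, 13534 passed the filter on low counts, and all 9 were among them. Of the transcripts of a gene, the one counted most often over all 6 libraries stood for the gene.

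TRAP immunoprecipitates ribosomes that carry the protein L10a fused to eGFP. In these mice a heterozygous Aldh1l1:L10a-eGFP transgene, a bacterial artificial chromosome, places the tag under the promoter of Aldh1l1, an astrocyte gene, so that the purity of the mRNAs depends on where that promoter is active and on RNA carried over in the precipitate. The study compared whole hippocampi of mice aged 6 weeks in 3 Cx43FL and 3 Cx43KO libraries. Every mouse had the transgene and floxed alleles of Cx43 (Cx43 fl/fl). Cx43FL mice had no Cre (the libraries labelled Littermates), and Cx43KO mice had in addition hGFAP-Cre (labelled Gfap Cre), which acts in cells in which the human GFAP promoter is or was active, among them progenitors of other neural cells. The comparison asks how deletion of Cx43 from astrocytes alters the mRNAs on their ribosomes. No source used here ties a library to given animals, so that the p-values measure only the spread between libraries. In such bulk RNA, fewer cells of a type and less RNA per cell cannot be told apart.

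Myelin is the lipid-rich membrane that oligodendrocytes wrap around axons. Mbp holds the cytoplasmic faces of this membrane together, Mobp is another small basic protein of compact myelin, and Mal is a raft protein that takes part in membrane sorting. Mog and Mag are immunoglobulin-like proteins, Mog on the outermost lamella and Mag on the lamella that faces the axon. Cnp and Ermn are bound to the cytoskeleton in the cytoplasmic channels, Opalin is a membrane protein of the paranodal loops, and Ugt8a makes the galactolipids of the sheath. Astrocytes do not make myelin, but their Cx43 channels couple to connexins of oligodendrocytes, and oligodendrocytes carry Mbp mRNA into their processes, where it is translated near the sheath.

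The promoters of 8 of the 9 genes were matched by symbol in RefSeq (build GRCm38.p6), in 10 windows of the 250 bases before a start site. These windows were searched on both strands for letters recognised by factors of the oligodendrocyte program, namely ACAAAG and AACAAT for SOX factors, CTGGNAC for MYRF and CAGCTG for bHLH factors. ACAAAG was found in the windows of Mobp, Mag, Cnp and Opalin, that is in 4 genes and 5 of the 10 windows, and in 16.5% of all 32851 windows. CTGGNAC was found in Mag, Cnp and Mog, that is in 3 genes and 4 of the 10 windows, and in 16.1% of all windows. For both motifs, overlapping windows of Mag share the same matches. AACAAT, held by 9.42% of all windows, and CAGCTG, held by 13.0%, were found in none of the 8 genes. Windows of Ermn, Mal and Ugt8a held none of these letters. The 4 windows below are shown because they hold most of the matches and because their genes behaved differently in the libraries, Mobp being among the most variable members and Cnp the least. They are written 5′ to 3′ on the strand of the gene, and capitals mark ACAAAG or CTGGNAC on either strand. The Mobp window (chr9:120149492-120149741, plus strand) holds ACAAAG at 6 positions, all on the opposite strand. The Mag window (chr7:30914864-30915113, minus strand) belongs to a start site upstream of the transcript counted here, and the window next to that transcript held no match. The Cnp window is at chr11:100574689-100574938 on the plus strand, and the Mog window at chr17:37023399-37023648 on the minus strand. The Cnp window lies at the start of Cnp-201 (100574904), whereas the transcript counted here, Cnp-204, begins downstream at 100575524.
Mobp: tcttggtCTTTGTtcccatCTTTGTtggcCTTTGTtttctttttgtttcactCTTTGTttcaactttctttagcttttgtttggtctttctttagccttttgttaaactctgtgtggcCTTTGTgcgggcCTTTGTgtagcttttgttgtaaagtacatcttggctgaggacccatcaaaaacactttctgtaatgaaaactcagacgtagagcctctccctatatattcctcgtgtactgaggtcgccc
Mag: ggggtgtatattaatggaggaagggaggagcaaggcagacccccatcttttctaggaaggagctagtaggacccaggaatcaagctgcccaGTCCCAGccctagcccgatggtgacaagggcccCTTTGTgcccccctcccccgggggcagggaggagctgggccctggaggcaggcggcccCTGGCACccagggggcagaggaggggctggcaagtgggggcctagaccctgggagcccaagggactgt
Cnp: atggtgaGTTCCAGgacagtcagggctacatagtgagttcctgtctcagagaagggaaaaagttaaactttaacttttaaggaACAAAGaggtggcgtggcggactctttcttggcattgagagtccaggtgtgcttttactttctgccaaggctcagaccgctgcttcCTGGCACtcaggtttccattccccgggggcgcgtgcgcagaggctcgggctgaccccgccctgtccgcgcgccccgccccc
Mog: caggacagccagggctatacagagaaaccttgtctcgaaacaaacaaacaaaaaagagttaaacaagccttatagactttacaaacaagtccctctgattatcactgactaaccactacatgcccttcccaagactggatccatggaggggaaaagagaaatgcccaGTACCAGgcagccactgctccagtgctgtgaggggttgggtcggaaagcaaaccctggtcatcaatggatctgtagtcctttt

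The libraries held between 33423491 and 77030398 counts on transcripts, and between 14772942 and 34703607 counts on genes. Levels are given in CPM, counts per M of the TMM-scaled total over the genes tested in that library, and 3 counts, the limit that a count of 0 allows, correspond to between 0.0864 and 0.203 per M counts on genes before that scaling. It accounts for counting error alone, because reads of amplified cDNA are not separate molecules. The targeted gene Gja1, which encodes Cx43, measured 92.0, 91.7 and 82.4 CPM in Cx43FL and 87.3, 98.5 and 95.1 CPM in Cx43KO, at a log2 fold change of 0.08 (SE 0.28, edgeR quasi-likelihood test, adjusted p = 0.949), so that no loss of Gja1 was seen in these counts. Cx43KO replicate 1 stood apart, its log2 CPM correlating at 0.783 to 0.838 with those of the other libraries, against 0.905 to 0.951 between Cx43FL libraries. The library numbers of the genotypes lie in separate ranges, so that a batch and the genotype cannot be told apart.

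All 9 myelin genes had counts in every library, at levels that spanned a wide range. Per length, Cnp was the highest in Cx43FL, at 89.3 ± 2.02 CPM per kb (SD, n = 3), above 93.2% of the genes tested. Mobp followed at 25.5 ± 10.6, Mbp at 20.1 ± 10.3 and Mal at 16.1 ± 5.94 CPM per kb. Ermn stood at 8.14 ± 5.99, Mog at 6.89 ± 7.94 and Ugt8a at 5.72 ± 2.58 CPM per kb, near the middle of all genes tested. Opalin, at 3.71 ± 0.673, and Mag, at 1.81 ± 0.835 CPM per kb, were the lowest. In this order only the neighbours Cnp and Mobp, and Opalin and Mag, did not overlap between Cx43FL libraries, while the ranges of the other neighbours overlapped. Neighbours were not compared within each library. In Cx43KO the mean of Mbp, 106 ± 120 CPM per kb, was the highest, before Cnp at 90.2 ± 6.19 and Mobp at 68.7 ± 71.4, but the spread of Mbp between the Cx43KO libraries exceeded its mean.

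**Figure D1:**
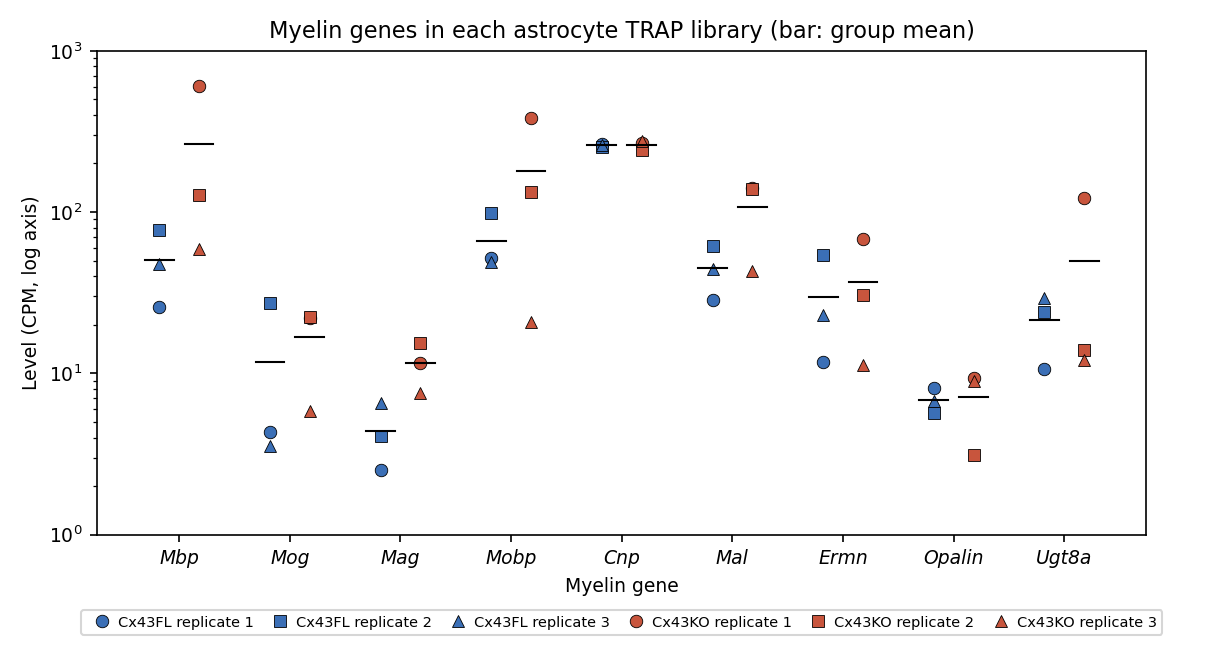
Levels of the 9 myelin genes (CPM, log axis) in the 3 Cx43FL (blue) and 3 Cx43KO (red) libraries, with marker shapes for the replicate numbers and bars for the group means. Cnp sits between 242 and 276 CPM in every library, whereas Mbp runs from 25.8 to 608 CPM, and Cx43KO replicate 1 is the highest library for 6 of the 9 genes.

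No myelin gene was called between the genotypes with edgeR's quasi-likelihood test (0 of 9 at an adjusted p below 0.05 with a mean normalized count above 50). The share called higher in Cx43KO over all genes tested was 0.00739%, and the share called lower was 0%. At an unadjusted p below 0.05, 2 of the 9, Mbp and Mal, were higher in Cx43KO and 0 were lower, against 5.66% and 2.67% of all genes tested. Without Cx43KO replicate 1, 0 of the 9 were higher at that threshold, against 5.16% of all genes. All 9 log2 fold changes were positive, against 54.4% over all genes tested, and their median was 1.21, against 0.07. Without Cx43KO replicate 1, 5 of the 9 were positive and the median was 0.20, against 0.00 over all genes. DESeq2 without a prior called Mbp alone among the 9 genes, where it called 1.03% of the genes it tested higher and 0.189% lower in Cx43KO. With its normal prior, DESeq2 called none of the 9, against 0.827% and 0.124%. Neither form of DESeq2 gave a p-value for Ugt8a.

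Among the proteins of compact myelin, Mbp showed the widest spread. Its level was 25.8, 76.9 and 47.5 CPM in the Cx43FL libraries and 608, 127 and 58.9 CPM in the Cx43KO libraries (each in the order of replicates 1 to 3, here and for the genes that follow). Cx43KO replicates 1 and 2 lay above every Cx43FL library, while replicate 3 lay within their range. The log2 fold change was 2.40 (SE 0.74, edgeR, adjusted p = 0.520), and the exact 2-sided permutation test gave p = 0.2. In DESeq2 without a prior it was also 2.40 (SE 0.70) with an adjusted p of 0.0478, and with the prior 1.68 with an adjusted p of 0.0590. Cx43KO replicate 1 was 12.1-fold above the Cx43FL mean, and without it the log2 fold change was 0.89 (SE 0.46, edgeR, adjusted p = 0.638).

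Mal measured 28.5, 61.5 and 44.3 CPM in Cx43FL and 141, 139 and 43.2 CPM in Cx43KO. As for Mbp, Cx43KO replicates 1 and 2 were above every Cx43FL library and replicate 3 was among them. The log2 fold change of Mal was 1.27 (SE 0.47, edgeR, adjusted p = 0.552; exact 2-sided permutation test, p = 0.3). It rested less on Cx43KO replicate 1 than that of Mbp, being 1.02 (SE 0.47) without it. Mobp measured 52.1, 98.4 and 49.2 CPM in Cx43FL and 384, 133 and 20.7 CPM in Cx43KO, so that its highest and its lowest library were both Cx43KO libraries. Its log2 fold change was 1.43 (SE 0.75, edgeR, adjusted p = 0.609; exact 2-sided permutation test, p = 0.6), and 0.20 (SE 0.60) without Cx43KO replicate 1.

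The adhesion proteins Mag and Mog had low counts. Mag was counted 38, 62 and 100 times in Cx43FL and 186, 383 and 245 times in Cx43KO, which gives 2.51, 4.12 and 6.52 CPM against 11.6, 15.4 and 7.57 CPM. It was the only member with no overlap between the genotypes, all Cx43KO libraries being higher, which is 1 of 9 genes, close to the 8.06% of all genes tested. No member had all its Cx43KO libraries lower, which held for 7.46% of all genes. Without Cx43KO replicate 1 these counts were again 1 and 0 of 9, against 13.8% and 12.3% of all genes. The log2 fold change of Mag was 1.39 (SE 0.73, edgeR, adjusted p = 0.609; exact 2-sided permutation test, p = 0.1, which is the lowest value possible with 3 libraries against 3) and was still 1.39 (SE 0.76, edgeR, adjusted p = 0.653) without Cx43KO replicate 1. Mog measured 4.35, 27.3 and 3.52 CPM in Cx43FL and 22.1, 22.5 and 5.84 CPM in Cx43KO. Its highest library was thus Cx43FL replicate 2. The log2 fold change of Mog was 0.52 (SE 0.85, edgeR, adjusted p = 0.870; exact 2-sided permutation test, p = 0.4), and 2.08 (SE 0.82, edgeR, adjusted p = 0.905) without Cx43FL replicate 2.

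The proteins of the cytoplasmic channels and paranodal loops differed from one another. Cnp, an abundant phosphodiesterase of non-compact myelin, measured 266, 254 and 259 CPM in Cx43FL and 268, 242 and 276 CPM in Cx43KO. Its libraries overlapped closely, with a log2 fold change of 0.01 (SE 0.25, edgeR, adjusted p = 0.993; exact 2-sided permutation test, p = 0.9). The highest library of Cnp was 1.14-fold above the lowest, a spread on the log2 scale wider than that of only 0.07% of the genes tested. The same spread placed Mbp above 97.4% and Mobp above 95.8% of the genes tested. Ermn measured 11.7, 53.8 and 23.1 CPM in Cx43FL and 67.9, 30.6 and 11.3 CPM in Cx43KO, the groups overlapping on both sides. Its log2 fold change was 0.31 (SE 0.68, edgeR, adjusted p = 0.909), and -0.50 (SE 0.64, edgeR, adjusted p = 0.878) without Cx43KO replicate 1. Opalin measured 8.11, 5.64 and 6.72 CPM in Cx43FL and 9.38, 3.14 and 9.02 CPM in Cx43KO, at a log2 fold change of 0.07 (SE 0.75, edgeR, adjusted p = 0.987).

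Ugt8a, the enzyme of galactolipid synthesis, measured 10.7, 24.2 and 29.3 CPM in Cx43FL and 123, 13.9 and 12.02 CPM in Cx43KO. Cx43KO replicate 1 was 5.73-fold above the Cx43FL mean, whereas replicates 2 and 3 lay within the Cx43FL range. The log2 fold change was 1.21 (SE 0.81, edgeR, adjusted p = 0.666; exact 2-sided permutation test, p = 0.8) with all libraries and -0.73 (SE 0.55, edgeR, adjusted p = 0.757) without Cx43KO replicate 1. For Ugt8a, DESeq2 gave no p-value, with or without its prior, so that it could not call this gene.

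**Figure D2:**
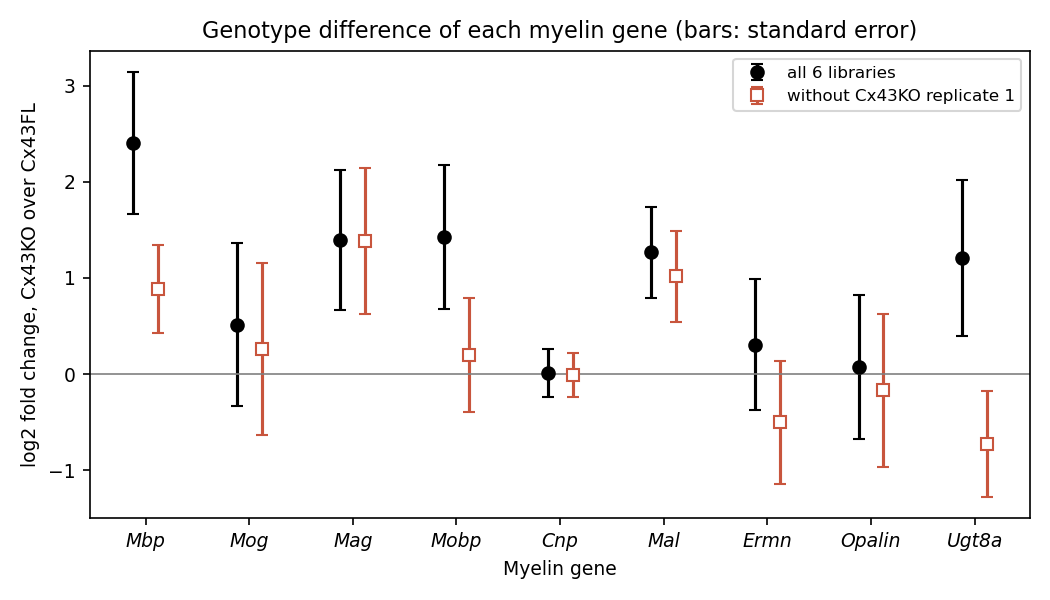
Log2 fold change of each myelin gene, Cx43KO over Cx43FL, from edgeR with all 6 libraries (black circles) and without Cx43KO replicate 1 (open red squares), with standard errors as bars. Without that library Mbp goes from 2.40 to 0.89, Mobp from 1.43 to 0.20 and Ugt8a from 1.21 to -0.73, while Mag stays at 1.39 and Cnp near 0.

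The members were thus uneven across the libraries within a genotype. Cx43KO replicate 1 was above every Cx43FL library for 8 of the 9 genes, Mog being the exception, and 37.9% of all genes tested were so placed. Cx43KO replicate 2 was above every Cx43FL library for 4 genes, against 28.6%, and replicate 3 for 3 genes, against 30.6%. Cx43KO replicate 1 was the highest of the 6 libraries for 6 of the 9 genes, against 30.3% of all genes. Within Cx43FL, replicate 2 was the highest for 5 of the 9 genes. The summed level of the 9 genes was 409, 606 and 469 CPM in Cx43FL and 1635, 726 and 445 CPM in Cx43KO, replicate 3 of the latter lying within the range of Cx43FL. The ratio of the means, Cx43KO to Cx43FL, was 1.89, and 1.18 without Cx43KO replicate 1. With the counts of all transcripts of a gene added up it was 2.92. In that sum a read on shared exons was apparently counted more than once, and Mbp, with 16 transcripts, weighs most. Since Cnp made up 41.9% to 64.9% of the sum in Cx43FL, the ratio was also computed without Cnp, and was 2.86. The sum without Cnp was 144, 352 and 210 CPM in Cx43FL and 1367, 484 and 169 CPM in Cx43KO. Mbp made up 6.31% to 12.7% of the sum in Cx43FL and 37.2%, 17.5% and 13.3% in Cx43KO replicates 1 to 3.

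Several of these genes have more than 1 transcript in the files, and a read was apparently counted on each transcript that it overlaps, since transcripts of a gene with shared exons had nearly equal counts. The Mbp locus (chromosome 18, 82475146 to 82585637, plus strand, GRCm38) has 16 of them, and contains a ribosomal protein pseudogene. The transcript used, Mbp-201, runs through the whole locus in 7 exons. Mbp-205, which begins in the upstream golli region and ends at 82558703, before the last exons of classic Mbp, measured 26.7, 14.6 and 25.9 CPM in Cx43FL and 228, 56.5 and 18.1 CPM in Cx43KO. Cx43FL replicate 1 had 1.03 times as many counts on Mbp-205 as on Mbp-201, whereas Cx43FL replicate 2 had 0.190 times and Cx43KO replicate 1 0.375 times as many. Mbp-208, which ends within the golli region, was counted 6, 0 and 1 times in Cx43FL and 0, 56 and 0 times in Cx43KO. The high level of Cx43KO replicate 1 was thus present on Mbp-201 and Mbp-205 and was not seen on Mbp-208, which had few counts. Mbp-205 extends past the start of classic transcripts such as Mbp-202, at 82554580. Its counts may therefore include reads of classic Mbp, and are no measure of golli mRNA alone.

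The transcript used for Mobp (chromosome 9, 120149707 to 120181484, plus strand), Mobp-204, is annotated as a target of nonsense-mediated decay, and its distal exons overlap the predicted gene Gm38642 on the same strand. The coding transcript Mobp-202, chosen for comparison after its counts were seen, measured 60.1, 75.7 and 51.9 CPM in Cx43FL and 185, 120 and 32.6 CPM in Cx43KO. Its log2 fold change was 0.85 (SE 0.51, edgeR, adjusted p = 0.637). Mobp-204 had 2.07 times as many counts as Mobp-202 in Cx43KO replicate 1 and 0.636 to 1.30 times as many in the other libraries. The transcript used for Cnp (chromosome 11, 100574904 to 100591729, plus strand), Cnp-204, is annotated as non-coding, but its counts were at most 1.01 times those of the coding Cnp-201 and in no library lower.

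**Figure D3:**
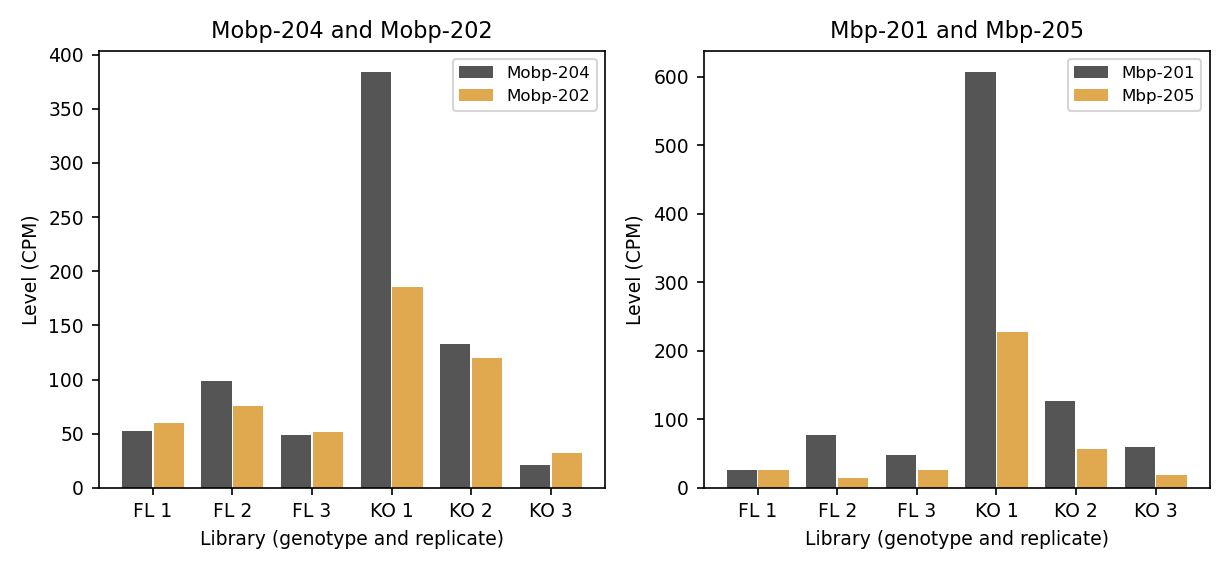
Levels (CPM) of Mobp-204 and Mobp-202 (left) and of Mbp-201 and Mbp-205 (right) in each library, FL standing for Cx43FL and KO for Cx43KO with the replicate number. In Cx43KO replicate 1 Mobp-204 reaches 384 CPM and Mobp-202 185 CPM, and Mbp-201 reaches 608 CPM and Mbp-205 228 CPM.

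The other loci lie on chromosome 7 for Mag (30899176 to 30914873), chromosome 17 for Mog (37010743 to 37023398) and chromosome 19 for Opalin (41061710 to 41077113). Mal lies on chromosome 2 (127633226 to 127656695), as does Ermn (58045113 to 58052864), and Ugt8a on chromosome 3 (125865271 to 125938619), all 6 on the minus strand. Ermn overlaps Galnt5, and Cnp overlaps Dnajc7, on the opposite strand. Whether the counting used strand is not given in the sources used here, so that their reads cannot be told apart from those of these neighbours. For Mal, the shorter transcript Mal-201 measured 3.76, 2.79 and 6.19 CPM in Cx43FL and 11.7, 14.1 and 2.38 CPM in Cx43KO, with Cx43KO replicates 1 and 2 above and replicate 3 below the Cx43FL libraries. For Mog, Mog-202 had its highest level, 15.8 CPM, in Cx43FL replicate 2, the library in which Mog-201 was highest as well.

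Other genes of oligodendrocytes past the precursor stage were read from 7 lists of 57 genes, of which 53 were tested. None was called by edgeR (0 of 53, lowest adjusted p = 0.489). In every Cx43KO library 6 of the 53 lay above and 2 below every Cx43FL library, that is 11.3% and 3.77%, against 8.06% and 7.46% of all genes. Their log2 fold changes were positive for 36 and negative for 17 genes, with a median of 0.29, and of 0.09 without Cx43KO replicate 1. The median of 7 other myelin membrane proteins was 0.84 (6 positive), and 0.09 without Cx43KO replicate 1 (5 positive). The median of 6 tested genes of axon-glia contact was 0.42 (5 positive) and that of 5 genes of myelin lipid synthesis -0.25 (2 positive). The median of 18 tested further genes of mature oligodendrocytes was 0.12 (10 positive).

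Of these genes, those with the highest levels per length over the 6 libraries were Car2, a carbonic anhydrase, at 727 CPM per kb, Plekhb1 at 331, Cmtm5 at 277, Qdpr, an enzyme that recycles tetrahydrobiopterin, at 122, and Efhd1 at 118 CPM per kb. None of these 5 was higher in Cx43KO replicate 1 than in every Cx43FL library. All 5 were lowest of the 6 libraries in Cx43KO replicate 1, as was the sum of astrocyte markers. Which cells their mRNAs came from was not tested. Car2 measured 1212, 2029 and 1288 CPM in Cx43FL and 672, 852 and 1746 CPM in Cx43KO. Plekhb1 measured 1123, 1080 and 1024 CPM in Cx43FL and 561, 782 and 976 CPM in Cx43KO, every Cx43KO library lying below, with a log2 fold change of -0.48 (SE 0.29, edgeR, adjusted p = 0.636). Josd2, a deubiquitinase, was placed in the same way, with a log2 fold change of -0.84 (SE 0.52, edgeR, adjusted p = 0.642).

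Nfasc, which encodes neurofascin of glial paranodes and of axons, was 1 of the 6 genes with all Cx43KO libraries above those of Cx43FL. It measured 35.9, 23.4 and 40.4 CPM in Cx43FL and 185, 74.9 and 83.1 CPM in Cx43KO, a log2 fold change of 1.78 (SE 0.42, edgeR, adjusted p = 0.489; DESeq2 without a prior, adjusted p = 0.0155), and of 1.25 without Cx43KO replicate 1. Among 6 genes of newly formed oligodendrocytes, 3 were higher in all Cx43KO libraries than in any Cx43FL library, which is 50% of them against 8.06% of all genes. All 6 log2 fold changes were positive, with a median of 0.77. Without Cx43KO replicate 1 the median was 0.80, and 5 were positive. Bcas1, a marker of oligodendrocytes that begin to myelinate, measured 5.54, 5.18 and 6.26 CPM in Cx43FL and 41.8, 13.8 and 10.8 CPM in Cx43KO (log2 fold change 1.97, SE 0.66, edgeR, adjusted p = 0.541; DESeq2 without a prior, adjusted p = 0.0900), the log2 fold change being 1.12 without Cx43KO replicate 1. Enpp6, a choline phosphodiesterase of the same stage, measured 1.85, 3.12 and 5.48 CPM in Cx43FL and 24.0, 8.49 and 5.50 CPM in Cx43KO (log2 fold change 1.86, SE 0.83, edgeR, adjusted p = 0.592; DESeq2 without a prior, adjusted p = 0.241), its lowest Cx43KO library and its highest Cx43FL library lying close together. Without Cx43KO replicate 1 the log2 fold change of Enpp6 was 1.002.

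**Figure D4:**
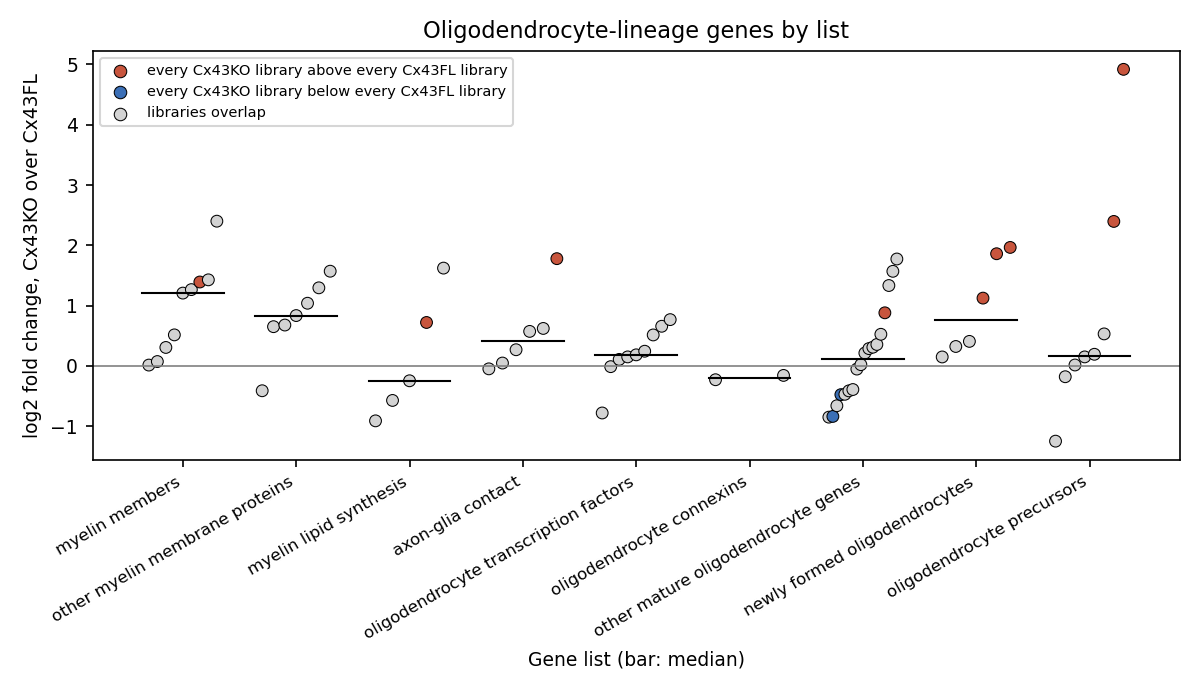
Log2 fold change, Cx43KO over Cx43FL, of each tested gene of the oligodendrocyte lineage by list, with the list median as a bar, in red where all Cx43KO libraries were above those of Cx43FL and in blue where all were below. The median of the 9 myelin members is 1.21 and that of the 18 further mature oligodendrocyte genes 0.12, and the highest point is Cspg4 at 4.92.

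The transcription factors that drive the oligodendrocyte program varied between libraries in different ways. Sox10 measured 4.68, 20.4 and 5.02 CPM in Cx43FL and 20.1, 6.84 and 5.59 CPM in Cx43KO, being high in Cx43FL replicate 2 and Cx43KO replicate 1. Myrf, required for myelin gene transcription, measured 14.9, 6.37 and 6.00 CPM in Cx43FL and 25.1, 13.7 and 0.247 CPM in Cx43KO. Olig2 measured 45.2, 59.6 and 34.0 CPM in Cx43FL and 8.08, 18.0 and 54.6 CPM in Cx43KO, its lowest library being Cx43KO replicate 1, the highest for Mbp. Olig1 had a log2 fold change of 0.24 (SE 0.33) and Nkx6-2 of -0.01 (SE 0.60). Of 9 such factors none was called (edgeR, lowest adjusted p = 0.710), and the median log2 fold change was 0.18 with 7 positive, and -0.39 with 3 positive without Cx43KO replicate 1.

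Of the connexins of oligodendrocytes, Gjb1, which encodes Cx32, did not pass the filter, with 6.77 CPM in Cx43KO replicate 1 and at most 0.593 CPM elsewhere. Gjc3, which encodes Cx29, measured 102, 103 and 64.7 CPM in Cx43FL and 150, 62.6 and 18.7 CPM in Cx43KO, at a log2 fold change of -0.23 (SE 0.58, edgeR, adjusted p = 0.923), and of -1.15 without Cx43KO replicate 1.

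Of oligodendrocyte precursor genes, 8 were tested, and 2 of them (25%), Cspg4 and Tnr, were higher in all Cx43KO libraries than in any Cx43FL library, against 8.06% of all genes, and none was lower in all of them, against 7.46%. Over the 8 genes of precursor cells the median log2 fold change was only 0.17, with 6 positive and 2 negative. Without Cx43KO replicate 1 that median was 0.09, with 5 positive. Pdgfra, the receptor that defines these cells, was even, between 13.1 and 14.0 CPM in the Cx43FL libraries and between 13.4 and 17.3 CPM in the Cx43KO libraries. Cspg4, the proteoglycan NG2, which pericytes carry too, was counted 4, 6 and 0 times in Cx43FL and 245, 62 and 93 times in Cx43KO. Its difference was a log2 fold change of 4.92 (SE 1.46, edgeR, adjusted p = 0.493; DESeq2 without a prior, adjusted p = 0.0103), and of 3.56 without Cx43KO replicate 1. Tnr, which encodes the matrix protein tenascin-R, measured 10.9, 1.39 and 7.17 CPM in Cx43FL and 62.3, 15.8 and 24.5 CPM in Cx43KO. For Tnr the log2 fold change was 2.40 (SE 0.78, edgeR, adjusted p = 0.538; DESeq2 without a prior, adjusted p = 0.0668), and 1.64 without Cx43KO replicate 1.

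Markers of other cells also differed between the libraries, and not all in the order of the myelin genes. In Cx43KO replicate 1, 14 of 14 neuron markers lay above every Cx43FL library, against 37.9% of all genes tested. The summed level of the neuron markers there was 8186 CPM, against 2227 to 2992 CPM in the Cx43FL libraries and 3222 and 4749 CPM in the other Cx43KO libraries. In the same library 18 astrocyte markers had a median log2 level of -1.09 relative to the Cx43FL mean, against -0.05 over all genes tested. Their sum was 12582 CPM, against 20686 to 24670 CPM in Cx43FL and 23290 and 35137 CPM in Cx43KO replicates 2 and 3. As a percentage of the summed astrocyte markers, the myelin sum was 1.91%, 2.93% and 1.90% in Cx43FL and 13.0%, 3.12% and 1.27% in Cx43KO. The ratio of these means was 2.58, which rested on Cx43KO replicate 1. Cx43KO replicate 3 lay below every Cx43FL library. Cx43FL replicate 2, the highest Cx43FL library for 5 of the 9 myelin genes, had a summed level of choroid plexus and ependyma markers of 474 CPM, against 9731 and 15060 CPM in the other Cx43FL libraries and 21794 to 32569 CPM in Cx43KO. Summed microglia markers lay between 29.6 and 54.3 CPM in the Cx43FL libraries and between 112 and 186 CPM in the Cx43KO libraries, highest in replicate 3, and those of endothelium and mural cells 136 to 165 and 136 to 217 CPM. Every marker list had members with counts in every library, and only Kcnj8 of the mural cell markers and Klk6 of the mature oligodendrocyte genes were at 0 in all of them. The part of these differences in the levels of the myelin genes was not tested.

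**Figure D5:**
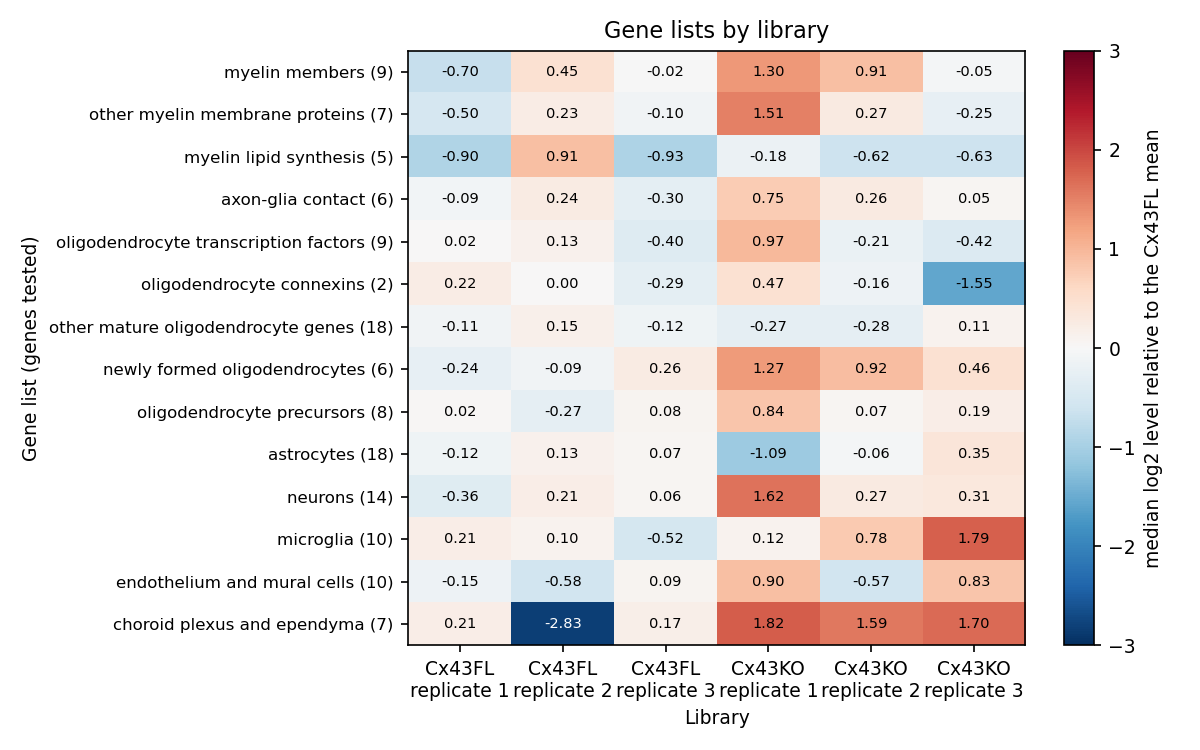
Median log2 level of each gene list relative to the Cx43FL mean (colour and printed value) in each library, with the number of genes tested in parentheses. In Cx43KO replicate 1 the myelin members stand at 1.30, neuron markers at 1.62 and astrocyte markers at -1.09, whereas in Cx43KO replicate 3 the myelin members stand at -0.05.

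The genes whose pattern over the 6 libraries was most like the mean of the standardized myelin genes were sought among 11231 genes with at least 5 CPM. Leaving out genes of the lists, they were Jph3, which anchors the endoplasmic reticulum to the plasma membrane of neurons (Pearson r = 0.992 over 6 libraries), Atp6v0a1, a subunit of the vacuolar proton pump (0.991), Ecpas, a proteasome adaptor (0.991), the Wnt co-receptor Lrp6 (0.989) and Prkar1b, a regulatory subunit of protein kinase A (0.989). Jph3 measured 9.56, 20.7 and 16.5 CPM in Cx43FL and 134, 21.9 and 16.1 CPM in Cx43KO. Like Mbp, with r = 0.987 to the mean of which it is a member, all 5 were highest in Cx43KO replicate 1 and lowest in Cx43FL replicate 1. Cnp, with r = 0.022, and Opalin, with 0.118, followed the mean of the members least. These points share 6 libraries, 1 of which stood apart, and the values are a description.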

How the data were processed

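Polysomal mRNAs were sequenced in 3 Cx43FL and 3 Cx43KO libraries. Per the labels and the methods, the authors filtered reads with Eoulsan, aligned them to mm10 with STAR, discarded multi-mapping reads, used HTSeq 0.5.3 for counting and deposited raw counts per Ensembl transcript. Of 75466 transcripts, 73164 were matched by identifier to GENCODE annotation of the same build (GRCm38), whose release is later than that of the authors, so that lengths may differ, and 2302 were not matched (1.60% to 1.78% of counts). The tests had been written for genes, so the transcript counted most often stood for its gene.

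The genotype comparison used edgeR 4.0.16 under R 4.3.3 (TMM, filterByExpr, quasi-likelihood F test, Benjamini-Hochberg adjustment over all genes tested), a call needing an adjusted p below 0.05 and a mean normalized count above 50. The common biological coefficient of variation was 0.600. Single genes were also compared by exact 2-sided permutation of log2 of CPM plus 0.5. Alternatives were other scalings and filters, DESeq2 1.42.0, a replicate block, leaving out each library, and other transcripts. The scripts were tested on simulated data, and all pairs of libraries differed by more than counting noise (chi-square of at least 34.1 per degree of freedom).

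Genes named are the 9 members, 5 transcription factors, 3 connexins, Gja1, Pdgfra and Cspg4, the 5 genes highest per length and up to 5 largest non-overlapping rises and falls of the other oligodendrocyte lists, and the 5 most alike genes. A result for 1 gene under this rule is left out here. Members and lists were chosen with earlier results of these data known. Promoter sequences and start sites came from RefSeq.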

Additional observations from a re-analysis of the deposited data

How the results depend on the processing

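The number of genes called over all genes, 1 with edgeR, was 0 with at least 10 counts in every library, 0 with the transcripts of a gene added up, 2 with the replicate block, 130 with DESeq2 and its normal prior, 174 with DESeq2 without a prior, 1120 at an unadjusted p below 0.05 and 0 to 11 when 1 library was left out, the 11 being without Cx43KO replicate 1. Of the 9 myelin genes, 0 were called, as under the other alternatives, except for 1 with DESeq2 without a prior (Mbp, log2 fold change 2.40) and 2 at an unadjusted p below 0.05 (Mbp and Mal). The cause of these differences was not tested. The log2 fold change of Cnp, near 0, turned to -0.0469 with upper-quartile factors and -0.0032 with the longest transcript, and ranged from -0.0253 to 0.0695 when 1 library was left out. That of Opalin turned to -0.0092 with upper-quartile factors and -0.0635 with the replicate block, and ranged from -0.17 to 0.43. Leaving out 1 library, Ermn ranged from -0.50 to 1.06 and Ugt8a from -0.73 to 1.67. Mbp, Mag, Mal, Mobp and Mog stayed positive in all 16 alternatives run for each, and with the block Mbp was 1.68, Mobp 0.65, Mog 0.91 and Ugt8a 0.22. Same-numbered libraries did not deviate together (correlations 0.0115, -0.004 and -0.0543), so that the block pairs libraries by number alone. The ratio of the summed members ranged from 1.18 to 2.39 when 1 library was left out. It was 2.92 with transcripts added up, where reads shared by transcripts apparently count more than once. It was 1.77 with coding transcripts and 1.87 as a geometric mean, both chosen after seeing the data. Mag had as few as 38 counts in a library, and Opalin the fewest in total, 832.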
